A study of Mus musculus with 10 samples.

Results

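The liver transcriptome of fasted mice lacking hepatocyte NAMPT was set against that of refed wild-type mice, to ask which parts of the fasting programme were still reached without the enzyme. The comparison was chosen by the sample labels alone. It held 7 of the 10 poly-A RNA sequencing libraries of the series, 5 from fasted NAMPT LKO mice and 2 from refed WT mice, and all 13444 genes that passed the filter on low counts. The other 3 libraries, from fasted WT mice, were used as the reference for fasting with NAMPT present.

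All mice were C57B/6J littermates of about 12 weeks. Nampt was floxed in every animal. NAMPT LKO mice carried Cre under the albumin promoter, which is active in hepatocytes, so that Kupffer, endothelial, stellate and bile duct cells were not the intended target of the deletion. WT mice were Nampt fl/fl without Cre. Per the labels, NAMPT LKO fasting and WT fasting livers were taken after 24 h without food, and WT refed livers after 22 h without food and 2 h of refeeding. The study's text describes a 12 h fast and a random-fed control instead, and the labels were followed here. The study's text counts its replicates as mice, and each library carries its own title, so the p-values measure the spread between these libraries. Genotype and feeding state changed together between the 2 groups, and their shares in any difference cannot be told apart within this comparison.

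On fasting, glucagon and low insulin activate CREB and FOXO1 in hepatocytes and so induce gluconeogenic enzymes, while fatty acids released from fat activate PPARα, which drives fatty acid oxidation, ketogenesis and the hormone FGF21. Refeeding restores insulin signalling, induces the SREBP programmes of lipid and sterol synthesis, and loads the endoplasmic reticulum (ER) with secretory protein, which engages the unfolded protein response. NAMPT makes nicotinamide mononucleotide in the salvage route to NAD+, the cofactor of dehydrogenases and the substrate of sirtuins.

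The NAMPT LKO fasting libraries held 30603080 to 41160486 assigned reads, and the WT refed libraries 43218540 and 42170825. Genes of the mitochondrial genome took 10.4% to 12.9% of reads in NAMPT LKO fasting 1 to 4, 21.1% in NAMPT LKO fasting 5, and 12.5% and 12.0% in the WT refed libraries. Values are given as CPM (reads of a gene relative to the library's total, after TMM scaling), listed from library 1 upwards, and fold changes as log2 ± SE from edgeR's quasi-likelihood fit with Benjamini-Hochberg adjustment over all genes tested. A gene was called at an adjusted p below 0.05.

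Nampt (chromosome 12, 32820335 to 32853369, plus strand, GRCm38) was measured at 12.1, 14.0, 11.8, 12.5 and 15.3 CPM in NAMPT LKO fasting and at 78.0 and 67.8 CPM in WT refed. The groups did not overlap, and the difference was -2.47 ± 0.24 (adjusted p = 0.000267). WT fasting libraries held 63.0, 73.4 and 141 CPM, so that NAMPT LKO fasting lay below them by -2.81 log2 units (95% interval -3.31 to -2.32). The remaining transcript in whole liver was not assigned to a cell type.

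The hepatocyte identity of the tissue was checked on 10 marker genes. None was called, and their median log2 difference was 0.05. Of markers of other liver cells, 0 of 10 Kupffer cell genes and 1 of 10 endothelial genes were called higher in NAMPT LKO fasting. So were 1 of 10 stellate cell or fibroblast genes and 2 of the 8 tested bile duct genes, beside 4.65% of all genes. A single call among 10 genes is not set apart from that share. The summed bile duct markers reached 39.3 to 60.8 CPM in NAMPT LKO fasting, 24.5 to 26.5 CPM in WT refed and 19.4 to 27.3 CPM in WT fasting. In whole liver, fewer cells of a type and less RNA per cell cannot be told apart.

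Fasted NAMPT LKO liver differed from refed WT liver at 1510 genes, 11.2% of the 13444 tested. Of these, 625 (4.65%) were higher and 885 (6.58%) were lower. A log2 difference of at least 1 was reached by 237 of the higher and 254 of the lower genes. Summed over the genes called higher, expression rose from 35716 and 36346 CPM in the WT refed libraries to between 58491 and 62972 CPM in the NAMPT LKO fasting libraries. Genes called lower summed to 63408 and 64967 CPM in WT refed and to between 32287 and 34916 CPM in NAMPT LKO fasting. The 2 groups did not overlap at 1504 of the called genes, and at 33.5% of all genes tested. For a called gene named below, a lack of overlap describes its values and is no further support. WT fasting against the same 2 WT refed libraries gave calls at 7.04% of genes. The 2 contrasts share those libraries, so their values are set side by side below and are not independent of each other.

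The number of calls varied with the libraries included. Without WT refed 1 it was 347 and without WT refed 2 it was 226, of which 344 and 224 were among the 1510. Without NAMPT LKO fasting 2 it was 984, and without NAMPT LKO fasting 5, the library rich in mitochondrial reads, it was 2835, with 1508 of the 1510 retained. Without NAMPT LKO fasting 1, 3 or 4 it was 1179, 1097 and 1216. Counts of list members given below with a library left out are to be read beside these totals of all 13444 genes. A low count without a refed library is not read as a result about a list. With scaling by library size alone, 1422 genes were called and 26.1% of them were higher, against 41.4% with TMM scaling. That scaling moved the median gene by -0.09 on the log2 scale. Below, a call lost without either refed library is one lost both when WT refed 1 and when WT refed 2 was left out. In such a fit the refed group is 1 library, and the spread comes from the fasted groups alone. A lost call can then go with a difference about as large, as at Pdk4, which stayed between 3.14 and 3.32 under the alternatives tried. At other genes the size moved more, as at Dbp (-2.26 to -0.89) and Ccnd1 (-1.76 to -0.86). A call lost in this way is therefore read neither as a lost difference nor as one that held.

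**Figure D1:**
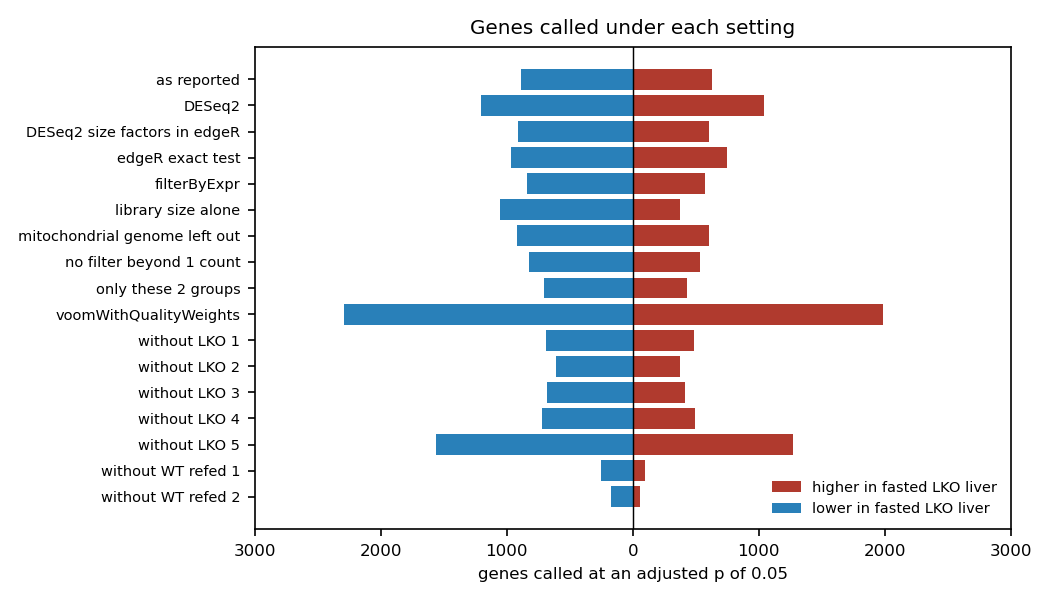
Number of genes called higher and lower in NAMPT LKO fasting against WT refed under each analysis setting and with each library left out. Leaving out either WT refed library gave the fewest calls (347 and 226), and leaving out NAMPT LKO fasting 5 gave 2835.

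Genes that insulin represses and that feed glucose output were partly higher in fasted NAMPT LKO liver. Of 22 genes of gluconeogenesis and insulin repression tested, 7 were higher and 1 was lower, with a median of 0.47 over the list, against 4.65% and 6.58% of all genes. WT fasting gave 4 higher and 1 lower, with a median of 0.57. Of the 22, 2 and 3 were called without WT refed 1 and WT refed 2.

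Igfbp1, an insulin-repressed secreted protein that binds insulin-like growth factors, had the largest difference among the genes named by the selection rule. It stood at 226, 112, 135, 79.7 and 316 CPM in NAMPT LKO fasting and at 1.75 and 0.761 CPM in WT refed, a difference of 7.11 ± 1.09 (adjusted p = 0.00287). Every NAMPT LKO library was above both refed libraries, which the rule for the largest differences required. WT fasting libraries held 563, 91.3 and 103 CPM. The difference lost its call without WT refed 2 (adjusted p = 0.0638) and was 7.82 without WT refed 1.

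The RefSeq promoter of Igfbp1 is shown because an insulin response core lies in it. The 300 bases run from 250 before to 50 after the start site at chr11:7197537-7197836, plus strand, GRCm38.p6, and capitals mark the 8-letter core CAAAACAA, at bases -108 to -101 from the start. Either strand of the same core occurred in 2.27% of the 9843 tested genes with a RefSeq promoter. The match is a description of these letters only.
Igfbp1: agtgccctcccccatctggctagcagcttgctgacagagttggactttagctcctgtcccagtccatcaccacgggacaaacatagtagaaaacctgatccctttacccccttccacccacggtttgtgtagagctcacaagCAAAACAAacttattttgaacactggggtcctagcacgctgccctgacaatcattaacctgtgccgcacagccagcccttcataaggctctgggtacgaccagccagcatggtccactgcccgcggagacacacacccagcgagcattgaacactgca

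G6pc encodes the glucose-6-phosphatase catalytic subunit, which releases free glucose. Its level was 375, 246, 342, 392 and 294 CPM in NAMPT LKO fasting and 32.4 and 50.0 CPM in WT refed (3.00 ± 0.47, adjusted p = 0.00323). Pck1, the cytosolic phosphoenolpyruvate carboxykinase, stood between 3024 and 4362 CPM against 1646 and 1567 CPM (1.18 ± 0.16, adjusted p = 0.00158). Neither gene overlapped between groups. Ppargc1a, the coactivator PGC1α, reached 19.2, 24.4, 23.8, 9.64 and 38.4 CPM against 6.48 and 7.19 CPM (1.76 ± 0.42, adjusted p = 0.0236). Got1, the cytosolic aspartate aminotransferase, was higher by 1.18. Irs2, the insulin receptor substrate induced by fasting, lay 1.53 higher without a call (adjusted p = 0.104). Per2 was the list's lower gene, at 8.69 to 15 CPM against 46.6 and 42.9 CPM. Without WT refed 1, G6pc lost its call, and Ppargc1a, Got1 and Per2 did so without either refed library. Got1 also lost it without NAMPT LKO fasting 2 or 3. Pck1 kept its call in each case.

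Between NAMPT LKO fasting and WT fasting, the log2 difference was -0.21 for G6pc (95% interval -0.97 to 0.54), -0.23 for Pck1 (-0.51 to 0.06) and 0.62 for Ppargc1a (-0.12 to 1.36). None of the 8 called members of the list had an unadjusted p below 0.05 in that direct contrast, beside 124 of all 1510 called genes. An interval as wide as that of G6pc does not show that the 2 genotypes were alike.

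**Figure D2:**
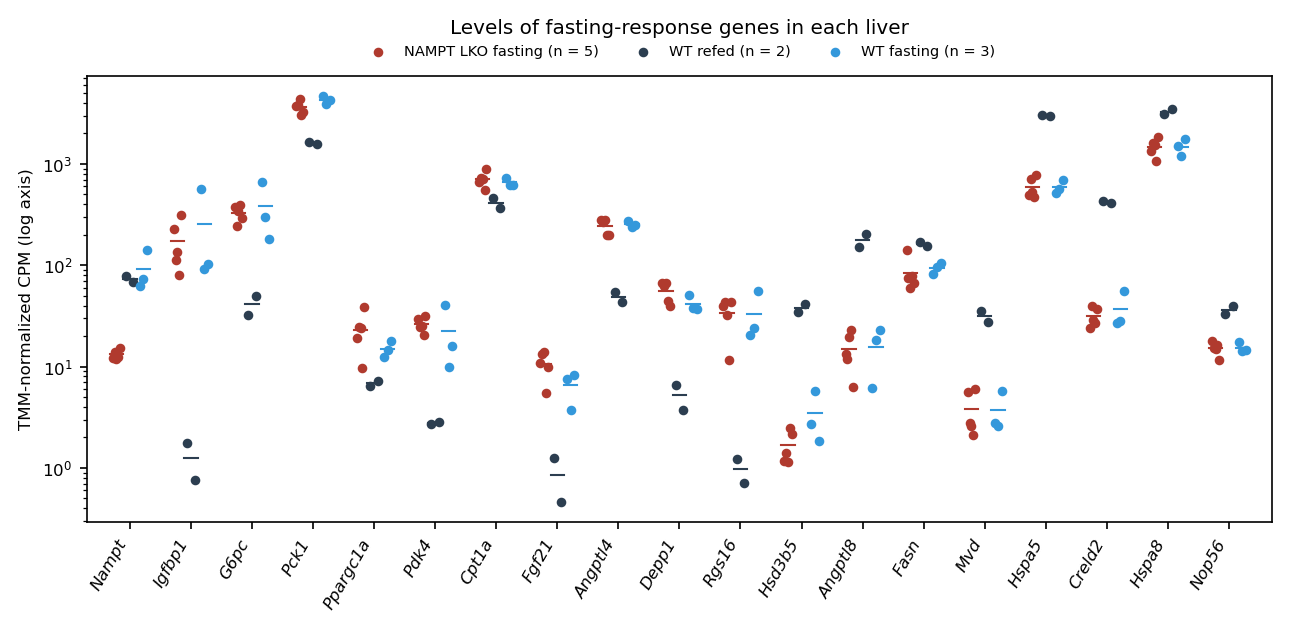
Level of single genes in CPM on a log axis, with a point for each NAMPT LKO fasting, WT refed and WT fasting library and a line at each group's mean. Nampt is low in all 5 NAMPT LKO libraries (11.8 to 15.3 CPM), while Igfbp1, G6pc and Fgf21 lie above both refed libraries in each of them.

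Fatty acid oxidation and other PPARα target genes were partly higher. Of 43 tested, 12 were higher and none was lower, beside 4.65% and 6.58% of all genes, with a median of 0.34. WT fasting gave 7 higher and none lower, with a median of 0.31. Without NAMPT LKO fasting 2 the count was 6, without NAMPT LKO fasting 4 it was 7, and without either refed library it was 0. It was 7 with scaling by library size alone.

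Pdk4 encodes the kinase that shuts off pyruvate dehydrogenase and so spares glucose. It stood at 29.8, 24.4, 25.3, 20.3 and 31.7 CPM in NAMPT LKO fasting and at 2.73 and 2.84 CPM in WT refed (3.24 ± 0.50, adjusted p = 0.00303). Cpt1a, which carries long-chain fatty acids across the outer mitochondrial membrane, stood between 546 and 889 CPM against 456 and 368 CPM (0.78 ± 0.18, adjusted p = 0.02). Ppara itself was 0.53 higher (adjusted p = 0.0454). Txnip, which restrains glucose uptake, was 1.73 higher, and the acyl-CoA thioesterases Acot2 and Acot1 were 1.27 and 1.16 higher. All of these lost their calls without either refed library. Acot1 and Ppara also lost them without NAMPT LKO fasting 2, 3 or 4, and Acot1 and Acot2 without NAMPT LKO fasting 1, as did Acot2 without NAMPT LKO fasting 2. Cyp4a14, a fatty acid hydroxylase and a standard PPARα target, lay 0.54 higher without a call (adjusted p = 0.107).

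Of 8 genes of ketone body synthesis and export tested, 1 was higher and 1 was lower, beside 4.65% and 6.58% of all genes. In so short a list, 1 call each way is not read as a result about the list. The monocarboxylate transporters Slc16a7 and Slc16a6 differed by 0.61 and -1.07. The call of Slc16a7 was lost without NAMPT LKO fasting 2 and without either refed library, and that of Slc16a6 without WT refed 2.

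Of 24 hepatokines, the proteins that liver secretes as hormones, 3 were higher and 2 were lower, beside 4.65% and 6.58% of all genes. The share called lower was near that of all genes, and 3 of these 5 calls held without WT refed 2. Fgf21, the fasting hormone under PPARα, stood at 10.7, 13.3, 14.0, 5.43 and 9.99 CPM in NAMPT LKO fasting and at 1.25 and 0.461 CPM in WT refed (3.63 ± 0.53, adjusted p = 0.00231). Every NAMPT LKO library exceeded both refed libraries, and the call held with any 1 library left out, at 4.51 without WT refed 1. WT fasting libraries held 7.50, 3.72 and 8.32 CPM. Fgf21 was 0.71 higher in NAMPT LKO fasting than in WT fasting, with a 95% interval of -0.10 to 1.52.

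Angptl4, an inhibitor of lipoprotein lipase, stood between 198 and 281 CPM in NAMPT LKO fasting and at 54.1 and 43 CPM in WT refed (2.34 ± 0.20, adjusted p = 0.000124). Angptl8, its insulin-induced relative, went the other way, at 13.4, 11.9, 19.5, 22.7 and 6.27 CPM against 152 and 202 CPM (-3.58 ± 0.46, adjusted p = 0.00112). Both calls held with any 1 library left out. The direct difference from WT fasting was -0.04 (95% interval -0.37 to 0.29) for Angptl4 and -0.09 (-1.04 to 0.85) for Angptl8. Gdf15, a stress hormone, did not pass the test (0.19, adjusted p = 0.882).

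Of 25 genes that glucocorticoids or C/EBP factors induce, 8 were higher and none was lower, beside 4.65% and 6.58% of all genes. The list's median was 0.61. WT fasting gave 11 higher, with a median of 0.97. The metallothioneins Mt2 and Mt1, which bind zinc and copper, were 3.22 and 2.73 higher, with NAMPT LKO fasting 3 the highest library at 270 and 493 CPM. Without that library the difference of Mt2 was 2.58. Gadd45b was 1.71 and Dusp1 was 1.07 higher. Tsc22d3 (GILZ), a direct glucocorticoid receptor target, was 0.63 higher without a call (adjusted p = 0.0899) and lay below WT fasting by -0.54 (95% interval -0.93 to -0.14). Of the 25, 2 and 3 were called without WT refed 1 and WT refed 2. Mt2, Mt1 and Dusp1 lost their calls in both cases and Gadd45b without WT refed 1.

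Genes of growth arrest and cell cycle entry, in a joint list, gave 7 higher and 2 lower of 28. Over all genes the shares were 4.65% and 6.58%, and the list's lower share was near the latter. Ccng2, a FOXO target cyclin of quiescent cells, stood between 12.3 and 21.3 CPM against 5.09 and 3.76 CPM (1.98 ± 0.27, adjusted p = 0.00158). Ccnd1, the cyclin of cell cycle entry, was lower (-1.37). Of the 28, 3 and 2 were called without WT refed 1 and WT refed 2, Ccng2 among them in both cases, and Ccnd1 lost its call without WT refed 2.

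Autophagy and lysosome genes gave 5 higher and none lower of 45, beside 4.65% and 6.58% of all genes. Depp1, a FOXO target linked to autophagy, had the largest difference of the 5, at 66.8, 62.9, 67.2, 44.5 and 40.0 CPM against 6.61 and 3.76 CPM (3.44 ± 0.32, adjusted p = 0.000204). The initiating kinase Ulk1 and the ATG8 family genes Gabarapl1 and Map1lc3b were 0.99, 0.83 and 0.65 higher. The receptor Sqstm1 was not called (-0.21). Leaving out NAMPT LKO fasting 5 raised the count to 10 (8 higher and 2 lower), near the share of all genes in that fit (2835 of 13444). Fewer were called with WT refed 1 or WT refed 2 left out. Depp1 kept its call in both cases, Ulk1 and Map1lc3b lost theirs in both, and Gabarapl1 lost its call without WT refed 2.

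Lipid droplet genes were represented by the coat proteins Plin4 and Plin2, higher by 1.39 and 0.93, and by the triglyceride lipase Pnpla2, higher by 0.82. In the whole list of lipid droplets, lipolysis and lipoproteins, 5 of 33 were higher and 1 was lower, beside 4.65% and 6.58% of all genes. None of the 33 was called without either refed library, 3 were called without NAMPT LKO fasting 1 or 2, and 10 without NAMPT LKO fasting 5.

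The growth hormone axis was lower at 6 and higher at 3 of 23 genes, beside 6.58% and 4.65% of all genes. Onecut1, a hepatocyte transcription factor that growth hormone induces, stood at 11.5, 8.85, 14.6, 13.9 and 7.63 CPM in NAMPT LKO fasting and at 67.2 and 142 CPM in WT refed (-3.20 ± 0.29, adjusted p = 0.000175). Igfals, the carrier subunit of circulating IGF1, was lower (-1.64). Cish, a feedback inhibitor of growth hormone signalling, was lower than in WT refed (-2.04) and 1.35 higher than in WT fasting (95% interval 0.27 to 2.43). Igf1 itself was not called (-0.32, adjusted p = 0.27). Of the 23, 5 and 1 were called without WT refed 1 and WT refed 2, and without NAMPT LKO fasting 2 it was 6. Onecut1 kept its call throughout, with a difference of -2.58 without WT refed 2. Igfals lost its call without WT refed 2 and Cish without either refed library.

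Large falls outside the lists, among genes named by the rule, included a steroid enzyme and a gene of neuronal regeneration. Hsd3b5, a male-predominant hydroxysteroid dehydrogenase of hepatocytes, stood at 1.17, 1.41, 1.15, 2.47 and 2.16 CPM against 34.2 and 41.0 CPM (-4.49 ± 0.38, adjusted p = 0.000116). It lay below WT fasting by -1.03 (95% interval -1.82 to -0.24), where the libraries held 2.73, 5.77 and 1.86 CPM. Nrep stood between 3.01 and 4.55 CPM against 44.5 and 44.1 CPM (-3.59 ± 0.23, adjusted p = 2.63e-05). Hsd3b5 belongs to a family of near-identical paralogs, between which reads can be split. Both calls held with any 1 library left out.

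Of 29 genes of the circadian clock and its output, 6 were lower and 2 were higher, beside 6.58% and 4.65% of all genes. The share called higher was near that of all genes. Bhlhe41, a repressor of the clock and an insulin-induced gene, Dbp, a circadian transcription factor, and Ciart, a clock repressor, were lower (-2.41, -1.72 and -2.0). Dbp stood at 15.6, 13.6, 6.06, 13.2 and 9.52 CPM in NAMPT LKO fasting and at 55.1 and 21.3 CPM in WT refed. The core activator Arntl and the repressor Nr1d1 were not called (0.40 and -0.35). Of the 29, 1 and 2 were called without WT refed 1 and WT refed 2. Bhlhe41 and Dbp lost their calls without WT refed 1, where the difference of Dbp shrank to -0.89, and Ciart without NAMPT LKO fasting 1, 3 or 4 or either refed library.

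Of 33 lipogenic genes, 2 were higher, a share near the 4.65% of all genes, and 5 were lower, beside 6.58% of all genes, with a median of 0.06 that became -0.04 with scaling by library size alone. Aacs, which returns ketones to lipid synthesis, was lower (-2.26). Fasn, the fatty acid synthase, was lower (-0.94, adjusted p = 0.0455), with NAMPT LKO fasting 1 at 143 CPM and the other 4 libraries at 60.1 to 78.7 CPM. Its call was lost without any one of NAMPT LKO fasting 2 to 5 and without either refed library.

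Srebf1, Acaca and Scd1, the lipogenic regulator and 2 of its target enzymes, were not called, at -0.44, -0.21 and 0.50. The 2 higher members were Rgs16 and Lpin2. Rgs16, a regulator of G protein signalling, stood at 39.2, 43.7, 32.4, 11.6 and 43.4 CPM against 1.23 and 0.715 CPM (5.12 ± 0.69, adjusted p = 0.00146). Lpin2, a phosphatidate phosphatase, was 1.67 higher. Leaving out WT refed 1 or WT refed 2, 5 and 4 of the 33 were called, Rgs16 in both cases, while Lpin2 lost its call without WT refed 2. Aacs kept its call with any 1 library left out.

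Of 29 genes of sterol synthesis and uptake tested, 10 were lower and none was higher, beside 6.58% and 4.65% of all genes. The median was -0.84, and WT fasting gave 7 lower with a median of -0.89. Mvd, mevalonate diphosphate decarboxylase, stood at 5.58, 2.76, 2.58, 2.12 and 6.03 CPM against 35.3 and 27.7 CPM (-3.05 ± 0.39, adjusted p = 0.00118). Sqle and Fdps, further enzymes of the pathway, were lower (-2.25 and -1.82). Without NAMPT LKO fasting 5, 21 of the 29 were lower. Without WT refed 1 or WT refed 2, 2 and 4 were called, Mvd in both cases. Sqle and Fdps lost their calls without either refed library, and Sqle also without NAMPT LKO fasting 2. With voomWithQualityWeights, the difference of Sqle was -2.94.

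The ER list had the largest share called lower of the 29 lists. Of 65 genes for ER chaperones, translocation and the unfolded protein response, 43 were lower and none was higher, against 6.58% of all genes. The median difference was -0.74. Of the 22 genes that were not called, 17 were fitted lower and 5 higher. The list summed to between 7596 and 10144 CPM in NAMPT LKO fasting and to 18929 and 18347 CPM in WT refed. WT fasting gave 41 lower and a median of -0.78. With 1 NAMPT LKO library left out, 40 to 48 were called. Without WT refed 1 or WT refed 2 the counts were 26 and 24, all of them lower.

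Creld2, a disulfide isomerase induced by ER stress, stood at 24.3, 39.9, 28.6, 26.8 and 36.6 CPM in NAMPT LKO fasting and at 434 and 415 CPM in WT refed (-3.77 ± 0.26, adjusted p = 4.47e-05). Hspa5, the main ER chaperone BiP, stood at 495, 703, 524, 468 and 774 CPM against 3051 and 2976 CPM (-2.35 ± 0.19, adjusted p = 0.000109). Neither gene overlapped between groups. Syvn1, the ubiquitin ligase of ER-associated degradation, was lower (-2.85, adjusted p = 2.63e-05).

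The BiP cofactors Sdf2l1, Manf and Hyou1 were lower (-3.53, -2.63 and -2.58). Xbp1, the transcription factor that IRE1 splices, was lower (-1.13). Derl3, a retrotranslocation factor, was lower (-3.58), with 1.49, 5.70, 7.16, 1.33 and 0.798 CPM against 52.4 and 27.3 CPM. The call of Derl3 was lost without WT refed 1, and those of Creld2, Hspa5, Syvn1, Sdf2l1, Manf, Hyou1 and Xbp1 held with any 1 library left out.

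The direct difference between NAMPT LKO fasting and WT fasting was near 0 for this compartment. It ran from -0.47 to 0.43 over the 43 called genes, none of them with an unadjusted p below 0.05, beside 124 of all 1510 called genes. The 95% interval lay within 1 log2 unit of 0 for 41 of the 43, near the 90.2% of all 1510 called genes, and for 81.8% of all genes tested. Hspa5 differed by 0.00 (95% interval -0.40 to 0.40) and Creld2 by -0.24 (-0.77 to 0.29).

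**Figure D3:**
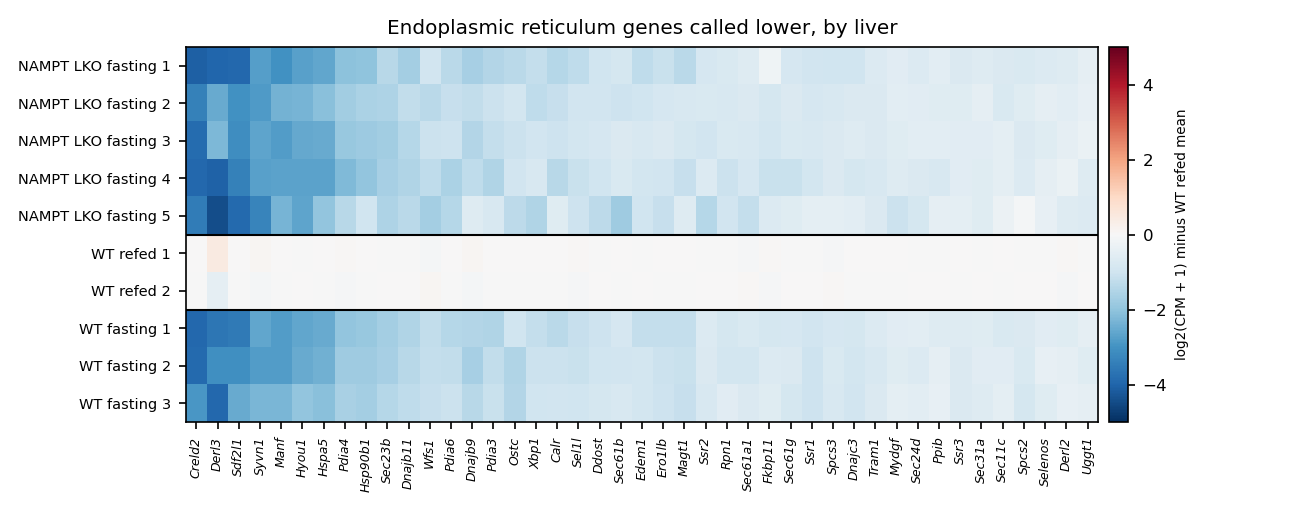
Log2 level of each ER gene in each library as log2(CPM + 1) minus the mean of the WT refed libraries, for the 43 ER genes called lower (columns) and the 10 livers (rows). The 5 NAMPT LKO fasting rows lie below the 2 refed rows at all 43 genes, from Creld2 at -3.77 on the fitted scale to differences under 1.

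Many promoters of ER genes carry an ER stress response element, in which CCAAT and CCACG are 9 bases apart. The elements found in called genes are shown because Creld2, Derl3, Syvn1 and Hspa5, named above, are among the genes that hold one. RefSeq promoters (GRCm38.p6, 250 bases before to 50 after the start) were searched on both strands. Each element is printed 5′ to 3′ on the strand where CCAAT comes first, with its fixed letters in capitals.
Creld2: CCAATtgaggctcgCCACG
Derl3: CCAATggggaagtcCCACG
Syvn1: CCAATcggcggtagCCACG
Hspa5: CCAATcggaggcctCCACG
Hsp90b1: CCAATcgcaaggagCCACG
Hsp90b1: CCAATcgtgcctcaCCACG
Pdia6: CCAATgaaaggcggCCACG
Calr: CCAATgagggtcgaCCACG
Dnajc3: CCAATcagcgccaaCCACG

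The elements lay at chr15:88819520-88819538 for Creld2, chr10:75893242-75893260 for Derl3, chr19:6046532-6046550 for Syvn1 and chr2:34772025-34772043 for Hspa5, with first bases 126, 156, 44 and 65 before the start. Hsp90b1, the ER paralog of HSP90, held 2 of them at chr10:86705638-86705656 and chr10:86705533-86705551 and was lower (-1.63). The disulfide isomerase Pdia6, the calcium-binding chaperone Calr and the BiP cofactor Dnajc3 were lower (-1.30, -1.10 and -0.75). Hsp90b1, Pdia6, Calr and Dnajc3 were chosen after their values were seen, and Calr and Dnajc3 lost their calls without either refed library.

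The element occurred in 17 of the 9843 tested genes with a promoter, 0.173% of them. Of the 17, 9 were lower, none was higher and 8 were not called, of which 6 were fitted lower. Of all 9843, 711 were lower and 471 were higher. The ER list held 9 of the 17, 8 of them called, and Canx, a lectin chaperone, was its member without a call (-0.38). Of the 8 outside the list, the single called gene was Alg12, a mannosyltransferase of N-glycan assembly, which was lower (-1.42). It shares the Creld2 element in the promoter between the 2 genes. Alg12, picked by this search, lost its call without either refed library. Of the 34 called ER genes with a promoter, 8 (23.5%) held the element and 28 (82.4%) held a CCAAT box, which 42.7% of all tested promoters held. The other 26 of the 34 do not hold the full element in this window.

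The promoters of Creld2, with the largest fall of the list, and of Hspa5, the most abundant element-bearing transcript in WT refed, follow, at chr15:88819396-88819695 and chr2:34771840-34772139, plus strand, with the element in capitals.
Creld2: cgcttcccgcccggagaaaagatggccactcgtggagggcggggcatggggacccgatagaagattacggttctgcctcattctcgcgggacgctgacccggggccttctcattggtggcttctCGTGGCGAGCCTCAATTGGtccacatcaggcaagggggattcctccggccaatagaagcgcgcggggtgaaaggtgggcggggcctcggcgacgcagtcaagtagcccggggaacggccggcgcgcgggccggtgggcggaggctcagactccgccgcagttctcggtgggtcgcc
Hspa5: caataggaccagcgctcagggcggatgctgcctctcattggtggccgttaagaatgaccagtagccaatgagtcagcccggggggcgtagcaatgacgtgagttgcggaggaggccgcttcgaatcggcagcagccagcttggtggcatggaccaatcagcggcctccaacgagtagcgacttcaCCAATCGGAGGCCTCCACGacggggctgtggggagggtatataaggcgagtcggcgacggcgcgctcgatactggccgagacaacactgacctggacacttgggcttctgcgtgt

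Ribosome biogenesis was lower at 26 of 69 genes and higher at none, beside 6.58% and 4.65% of all genes. The median was -0.44, and WT fasting gave 18 lower with the same median. Rrp12, a factor of ribosomal subunit export, stood between 7.04 and 9.86 CPM against 21 and 24.4 CPM (-1.44 ± 0.15, adjusted p = 0.000377). Nop56, a core protein of box C/D small nucleolar particles, and Polr1e, an RNA polymerase I subunit, were lower (-1.26 and -1.15). The nucleolar protein Ncl was not called (0.36), nor was Myc (-0.31). None of the 26 had an unadjusted p below 0.05 against WT fasting, beside 124 of all 1510 called genes. The count was 17 without NAMPT LKO fasting 2, 47 without NAMPT LKO fasting 5 (46 lower and 1 higher), and 11 and 6 without WT refed 1 and WT refed 2. Rrp12 and Nop56 kept their calls throughout, and Polr1e lost it without WT refed 2.

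Heat shock and cold-inducible genes were called in both directions. Of 22 in the joint list, 10 were lower and 3 were higher, beside 6.58% and 4.65% of all genes. Hspa8, the constitutive cytosolic HSP70, stood between 1077 and 1861 CPM against 3109 and 3458 CPM (-1.15 ± 0.20, adjusted p = 0.00473). Hsp90aa1, the inducible cytosolic HSP90, and Hspa4l, an HSP110 family member, were lower (-1.50 and -1.49). Cirbp and Rbm3, RNA-binding proteins that rise as temperature falls, were 1.74 and 0.70 higher. Without NAMPT LKO fasting 1, 8 of the 22 were called, and without WT refed 1 or WT refed 2, 3 and 2 were called. Hspa4l kept its call throughout, Hspa8 lost it without WT refed 2, Cirbp and Rbm3 without either refed library, and Hsp90aa1 also without NAMPT LKO fasting 1, 2 or 3. Body temperature was not part of the data used here.

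Of 67 catabolic and urea cycle genes of amino acids, 5 were higher and none was lower, beside 4.65% and 6.58% of all genes, and the median was 0.01, or -0.09 with scaling by library size alone. Tdo2, which opens tryptophan degradation, was 0.66 higher, and Cdo1, which oxidises cysteine, was 0.56 higher. The urea cycle genes Cps1 and Ass1 were not called (0.01 and 0.00). Without NAMPT LKO fasting 1, 2, 3 or 4 the count was 3, 1, 2 and 3, and without either refed library it was 0. Among 25 transporters, 3 were higher and 1 was lower, beside the same 4.65% and 6.58% of all genes. Slc7a2, a cationic amino acid transporter, stood between 479 and 951 CPM against 176 and 208 CPM (1.90 ± 0.25, adjusted p = 0.00119), and its call held with any 1 library left out. Without WT refed 2 it was the single transporter called.

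The ATF4 stress list gave 5 higher and 3 lower of 30, beside 4.65% and 6.58% of all genes, the lower share being near that of all genes. Sesn2, an inhibitor of mTORC1, was 1.59 higher, Slc38a2, a glutamine transporter, was 0.97 higher, and Ddit3, the stress factor CHOP, was lower (-1.30). Ddit4, also an inhibitor of mTORC1, was 1.44 higher than in WT refed, at 6.00, 11.3, 9.16, 6.79 and 17.6 CPM against 4.50 and 3.00 CPM. It lay below WT fasting by -1.10, where the libraries held 23.2, 23.5 and 18.7 CPM (95% interval -1.76 to -0.43, unadjusted, and 1 of 811 genes at p below 0.05). The list's count was 4 without NAMPT LKO fasting 2 or 3, 15 without NAMPT LKO fasting 5, and 2 and 0 without WT refed 1 and WT refed 2. Ddit4 lost its call without NAMPT LKO fasting 2 or 3, Ddit4 and Sesn2 without either refed library, and Slc38a2 and Ddit3 without WT refed 2.

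Among 35 genes of NAD synthesis, clearance and use, 4 were higher and 2 were lower, beside 4.65% and 6.58% of all genes. The share called lower was near that of all genes, and Nampt was 1 of the 2 lower genes. Sirt1, the NAD-dependent deacetylase, stood at 12.1, 12.4, 12.0, 11.2 and 9.40 CPM in NAMPT LKO fasting and at 7.10 and 6.48 CPM in WT refed (0.75 ± 0.14, adjusted p = 0.00866). Slc25a51, the mitochondrial NAD+ carrier, was 0.69 higher. Both calls were lost without either refed library. The other higher members were Bst1, a glycohydrolase that consumes NAD+ (2.32), and Tdo2, which opens the route from tryptophan (0.66). Bst1 stood at 1.48 CPM in NAMPT LKO fasting 3 and at 0.57 to 0.994 CPM in the other 4. It passed the filter, above 1 CPM in at least 1 library, on the fasted side alone, so its call is not read as support. Bst1 and Tdo2 also lost their calls without either refed library, Bst1 without NAMPT LKO fasting 2 and Tdo2 without NAMPT LKO fasting 1, 2 or 4. Nmrk1 of the riboside route (0.15), Naprt of the nicotinic acid route (-0.43) and the nicotinamide methyltransferase Nnmt (-0.03) were not called. Slc25a51 and Sirt1 differed from WT fasting by -0.08 (95% interval -0.33 to 0.17) and 0.12 (-0.15 to 0.38). The list's count was 10 without NAMPT LKO fasting 5 and 1 without either refed library.

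The respiratory chain was not called against WT refed. None of 77 nuclear genes and none of 13 protein-coding genes of the mitochondrial genome passed the test, with medians of -0.09 and 0.23. The latter genes had a median log2 level of 1.15 relative to the refed mean in NAMPT LKO fasting 5 and between -0.36 and 0.08 in the other 4. Without NAMPT LKO fasting 5, 2 of the 77 nuclear genes and none of the 13 were called against WT refed. Against WT fasting, 13 of the 77 nuclear genes had an unadjusted p below 0.05, beside 811 of all 13444 genes, with a median of -0.12 and no call. None of 22 NRF2 antioxidant genes was called. Of 49 cytochrome P450 and conjugation genes, 4 were lower, a share near the 6.58% of all genes, with Cyp2c70 the deepest at -2.15, and 2, 2, 1 and 0 were called without NAMPT LKO fasting 1, NAMPT LKO fasting 2, WT refed 1 and WT refed 2. Cyp2b10, a target of the receptor CAR, was not called against WT refed (-0.35) and lay below WT fasting by -2.0 (95% interval -2.91 to -1.08, unadjusted p = 0.000557, not called by edgeR).

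Of 26 acute phase genes, 3 were higher and 1 was lower, beside 4.65% and 6.58% of all genes. Saa1 and Lcn2 were not called, and stood at 3276 and 358 CPM in NAMPT LKO fasting 3 against 8.40 to 45.5 CPM and 7.34 to 35.3 CPM in the other 4. None of the 26 was called without either refed library.

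**Figure D4:**
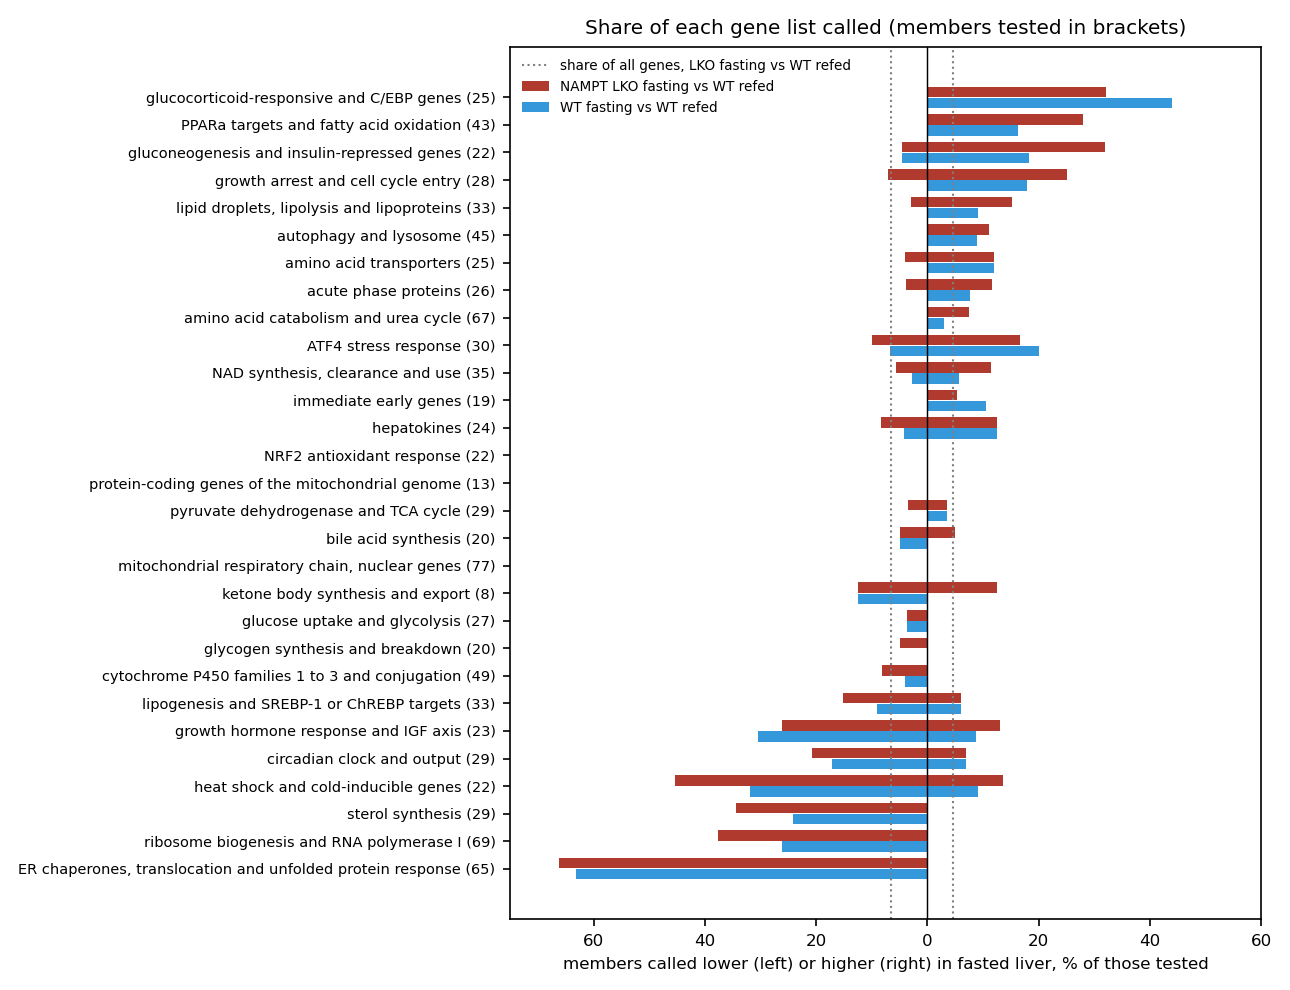
Share of each gene list called higher and called lower in NAMPT LKO fasting against WT refed (red) and in WT fasting against WT refed (blue), in percent of the members tested, with dotted lines at the shares of all genes (4.65% higher, 6.58% lower). The ER list has the highest share called lower (43 of 65 genes), and the respiratory chain lists have none called.

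Beyond the lists, the selection rule named further genes with large and tight differences. Ip6k2, an inositol hexakisphosphate kinase, was 2.60 higher, Rab30, a Golgi GTPase, was 2.23 higher, and Mycl, a MYC family gene, was 2.39 higher. Gmppb, which makes GDP-mannose for glycosylation, stood between 5.65 and 6.35 CPM against 34.4 and 32.5 CPM (-2.48 ± 0.18, adjusted p = 4.69e-05). These 4 calls held with any 1 library left out.

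Set directly against fasted WT liver, fasted NAMPT LKO liver gave a single call, 0.00744% of genes, and it was Nampt. An unadjusted p below 0.05 was reached by 811 genes, and DESeq2 called 21. The 95% interval of the direct difference lay within 1 log2 unit of 0 at 81.8% of all genes and at 1362 (90.2%) of the 1510 genes called against WT refed. Of those called higher it did so at 542 of 625, and of those called lower at 820 of 885. The median half-width of the interval was 0.39 for this contrast and 0.45 for NAMPT LKO fasting against WT refed.

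**Figure D5:**
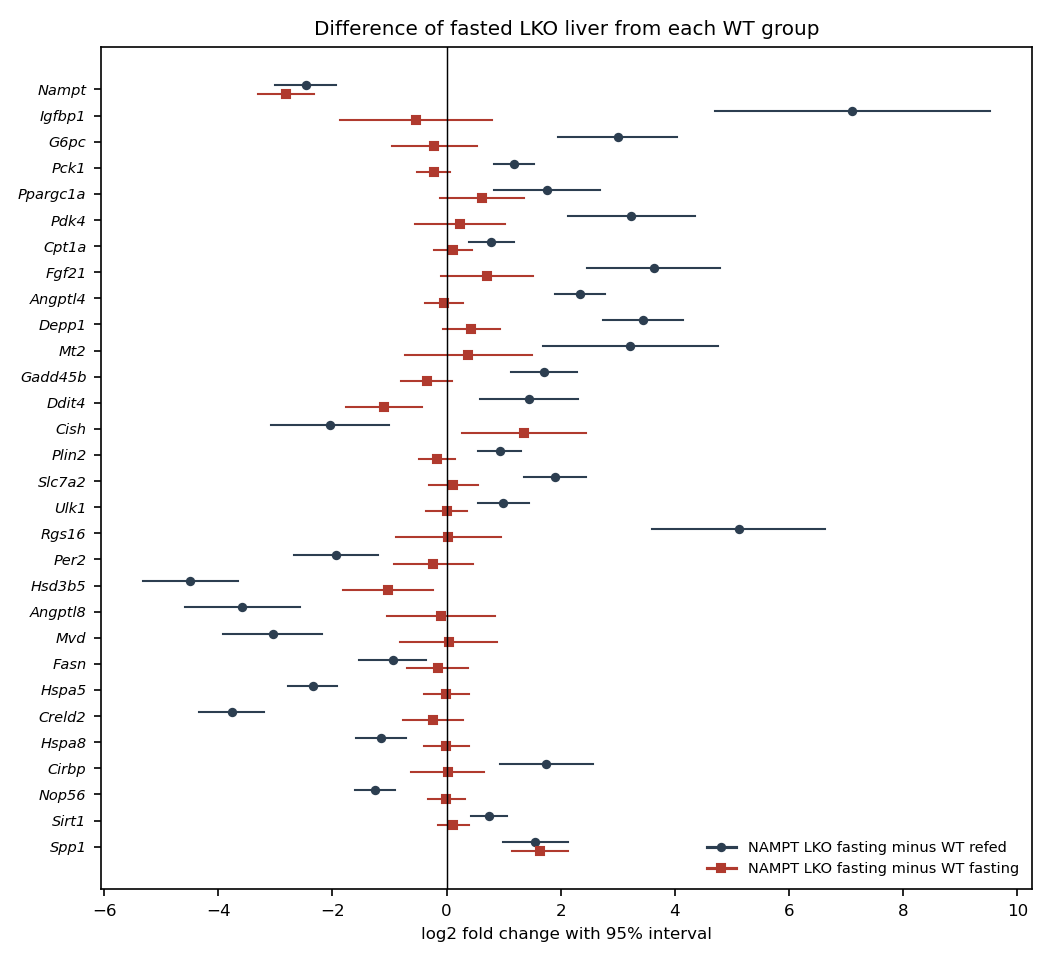
Log2 difference of NAMPT LKO fasting from WT refed (circles) and from WT fasting (squares) with 95% intervals, for genes described in the text. Most intervals against WT fasting include 0, and Nampt (-2.81) is the gene called in both contrasts.

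Some of the genes ranked first by the direct contrast, none of which but Nampt was called there, were also called against WT refed. Spp1 (osteopontin), a secreted protein of bile duct cells and of injured liver, stood at 35.2, 26.7, 19.4, 32.8 and 37.8 CPM in NAMPT LKO fasting, at 11.8 and 8.95 CPM in WT refed and at 8.67, 11.5 and 9.06 CPM in WT fasting. It was 1.55 ± 0.26 higher than in WT refed (adjusted p = 0.00427) and 1.64 higher than in WT fasting (95% interval 1.15 to 2.13), where the adjusted p of the edgeR fit was 0.0603. Steap2, a metalloreductase, was 1.87 higher than in WT refed and 0.86 higher than in WT fasting. Bicc1, an RNA-binding protein of ductal epithelium, was 1.23 and 1.29 higher. Anxa1 was 1.21 and 1.03 higher. The calls of Bicc1 and Anxa1 against WT refed were lost without either refed library, and that of Spp1 without WT refed 2.

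Spp1 is also 1 of the 8 bile duct markers tested. All 8 were fitted higher in NAMPT LKO fasting than in either WT group, with medians of 0.79 against WT refed and 1.33 against WT fasting. None of the 8 was called against WT fasting, and besides Spp1, Epcam was called against WT refed (1.67, adjusted p = 0.04). Epcam stood at 1.24 to 2.87 CPM in NAMPT LKO fasting, near the filter's limit of 1 CPM. Of the stellate and fibroblast markers, Col1a1 was called, at 8.59, 2.82, 7.06, 4.80 and 2.01 CPM against 0.583 and 1.25 CPM, a difference of 2.47 (adjusted p = 0.0224). Epcam and Col1a1 were picked after their values were seen, and both lost their calls without either refed library, Epcam also without NAMPT LKO fasting 1, 2 or 4. The difference of Col1a1 was 3.10 without WT refed 2. The part of these cell types in the differences of Spp1, Bicc1 and Anxa1 was not tested.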

How the data were processed

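Poly-A RNA of 10 livers was sequenced as single reads. The authors aligned the reads to GRCm38 with STAR and counted uniquely aligned reads per gene with featureCounts (STAR 2.5.1a and featureCounts 1.4.6-p5 in the submitters' processing notes). The deposited count column was used. The strand setting was not given in the sources used here, so reads of overlapping antisense genes may be mixed. Counts of 41388 genes were filtered to 13444, scaled by TMM and fitted with edgeR 4.0.16 (glmQLFit, R 4.3.3) over all 3 groups, with limma 3.58.1 and DESeq2 1.42.0 as alternatives. The fit was tested on simulated data. The 29 gene lists, the 10 marker lists and the rule for named genes were chosen with earlier results of these data known. That rule took genes fixed by name in each list, the called genes with the largest differences at sufficient expression in each list and over all genes, and the genes ranked first against WT fasting. No 2 libraries of a group differed by less than sampling noise. Replicate numbers were shared between groups in the titles, and their check is given with the limits. Results of some genes are not reported here.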

Additional observations from a re-analysis of the deposited data

Results flagged for a closer look

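Of 232 values compared within the 5 NAMPT LKO fasting libraries, 22 had 1 library apart from the other 4 by more than 0.71 of the group's range. Chance alone sets about 1 in 20 such groups apart. NAMPT LKO fasting 5 was the library in 11 of them, NAMPT LKO fasting 3 in 6, NAMPT LKO fasting 1 in 4 and NAMPT LKO fasting 4 in 1.

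NAMPT LKO fasting 5 had 21.1% of its reads on the mitochondrial genome, with a median log2 level of 1.15 for the 13 protein-coding genes of that genome, 28374 CPM of mt-Nd5 and 42372 CPM of mt-Co1. In the same library the median log2 level relative to the refed mean was 0.192 for hepatocyte markers and -0.199 for glycolysis genes. It also stood apart at Apoa4 (1753 CPM), Ncl (338 CPM), Alg12 (20.3 CPM), Il1rn (11.8 CPM) and Sesn2 (7.69 CPM).

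NAMPT LKO fasting 3 stood apart at the acute phase genes Saa1 (3276 CPM) and Lcn2 (358 CPM), at Mt1 (493 CPM) and Mt2 (270 CPM), at G0s2 (306 CPM) and at Chac1 (1.07 CPM). NAMPT LKO fasting 1 stood apart at Slc25a47 (1113 CPM), Fasn (143 CPM), Pklr (89.1 CPM) and Socs2 (24.3 CPM), and NAMPT LKO fasting 4 at Ppp1r3g (0.326 CPM).

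Nampt was the gene at which the changes of the 2 fasted groups from WT refed differed past the adjusted threshold, by -2.81 on the log2 scale.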

How the results depend on the processing

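None of the 121 named genes called for NAMPT LKO fasting against WT refed changed direction under the alternatives tried. The groups did not overlap at 1504 of the 1510 called genes, so leaving out 1 library could hardly reverse them. The other settings refitted the same counts, so the lack of a reversal is no further support. The count of genes called for NAMPT LKO fasting against WT refed was 491 with a log2 difference of at least 1 and 4281 with voomWithQualityWeights, and with 1 library left out it ran from 226 to 2835. For WT fasting against WT refed the count was 397 with a log2 difference of at least 1, 1646 with DESeq2, 1617 in a fit of the 2 groups alone and 3331 with voomWithQualityWeights, and with 1 library left out it ran from 107 to 780. For NAMPT LKO fasting against WT fasting it was 2 with library size alone, 3 with filterByExpr, 17 with no filter, 21 with DESeq2 and 24 with the edgeR exact test, and 1 to 2 with 1 library left out. The cause of these shifts was not tested. Libraries of both fasted groups carry the numbers 1 to 3. With these as a replicate block, 0 genes were called between NAMPT LKO fasting and WT fasting, and 0 in the same 6 libraries with no block. Deviations of same-numbered libraries correlated at 0.097, 0.176 and 0.131, each highest with its own number, a hint from the data of a shared factor. No label names one and the first value is small, so the fits were left unpaired. No paired analysis of NAMPT LKO fasting against WT refed was possible because the refed titles carry no numbers. Of 121 named genes called, 120 kept the call without NAMPT LKO fasting 5, 94 without NAMPT LKO fasting 2, and 53 and 43 without WT refed 1 and WT refed 2. With 2 refed libraries, a gene without a call is not shown to be unchanged.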

Other observations

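Tubulin and actin genes, picked after their values were seen, were lower in fasted NAMPT LKO liver. Beside 6.58% and 4.65% of all genes, 8 of 10 α- and β-tubulin genes tested were lower and none was higher against WT refed. They summed to between 257 and 401 CPM in NAMPT LKO fasting, to 700 and 724 CPM in WT refed and to between 402 and 482 CPM in WT fasting. Tuba4a, a tubulin of differentiated cells, stood at 102, 111, 98.7, 133 and 92.7 CPM against 224 and 229 CPM in WT refed and 125, 137 and 142 CPM in WT fasting. Tubb4b and Tuba1c were lower than in WT refed (-1.20 and -1.57), and their differences from WT fasting were -0.50 and -0.59. An unadjusted p below 0.05 against WT fasting was reached by 5 of the 8 called tubulin genes, beside 811 of all 13444 genes. The adjusted threshold was reached by none of the 8. The cytoplasmic actin Actg1 was lower than in WT refed (-1.81). The calls of Tuba4a, Tubb4b, Tuba1c and Actg1 against WT refed held with any 1 library left out.

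Mitochondrial carriers of the Slc25 family, also picked after their values were seen, went both ways, with 9 higher and 5 lower of 41. Slc25a47, a liver-restricted carrier, stood at 1113, 848, 924, 864 and 870 CPM in NAMPT LKO fasting and at 323 and 196 CPM in WT refed (1.83 higher). Of 73 mitochondrial ribosomal protein genes 10 were lower, and of 73 cytosolic ones 1 was called. Over all genes tested, 4.65% were higher and 6.58% were lower.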
